A study of Mus musculus with 3 samples.

Results

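Interferon-stimulated genes were measured in cultured adult mouse cardiomyocytes (ACMs) as a set of 42 genes chosen by their symbols, and all 42 symbols were found among the 56748 genes of the count table. The set holds antiviral effectors, sensors of viral RNA, interferon regulatory factors, guanylate-binding GTPases, genes of ISG15 conjugation and genes of antigen presentation. The ACMs came from hearts of WT mice 8 to 10 weeks old. After plating they were kept in serum-free M199 with 0.1% BSA, the contraction blocker 2,3-butanedione monoxime, insulin-transferrin-selenium and a lipid supplement. They then received vehicle (0.1% BSA), human IL-6 at 10 ng/mL or mouse oncostatin M (OSM) at 10 ng/mL for 16 h in the same medium, with no interferon added according to the labels. RNA was pooled within each condition before sequencing, so each of the 3 conditions is 1 library, and a ratio between libraries has no replicate check.

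Interferons bind receptors at the cell surface whose kinases, JAK1, JAK2 and TYK2, phosphorylate STAT factors. STAT2 acts with IRF9 in the factor ISGF3, which binds the interferon-stimulated response element (ISRE), whereas STAT dimers such as those of STAT3 bind gamma-activated sites (GAS). OSM and IL-6 use JAK1 as well but act through receptors that contain gp130 and signal mainly by STAT3, and the series was made to find the genes that respond to JAK1 activation through the OSM receptor.

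The libraries held 24939980 counts with vehicle, 26362446 with IL-6 and 30773001 with OSM. A count of 0 allows up to 3 counts, which is 0.120, 0.114 and 0.0975 CPM in these libraries. Markers of cardiomyocytes summed to between 548723 and 796406 counts. The 6 endothelial markers summed to between 822 and 1049 counts, the 4 smooth muscle and pericyte markers to between 792 and 1054, and the 6 fibroblast markers to between 119 and 182. The 6 macrophage markers summed to 208, 170 and 246 counts with vehicle, IL-6 and OSM, of which 187, 166 and 209 came from 1 marker, while Ptprc, C1qa and C1qb were at 0 in every library. The 4 T cell markers summed to between 4 and 12 counts and the 3 B cell markers to 0. Their part in the values of the interferon-stimulated genes was not tested, and in such bulk RNA fewer cells of a type and less RNA per cell cannot be told apart.

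Elements through which interferons act on genes often lie in the DNA near the start. Stretches of 150 bases before the start are therefore shown for 6 members, each of which holds a match. With OSM, Ifit1 and Rsad2 were lower than with vehicle, Isg15, Ifitm2 and Bst2 were higher, and Irf1 is shown as a member with a GAS and no ISRE. Sequences are from RefSeq on build GRCm38.p6 of the mouse genome, whereas the libraries were mapped to GRCm39, and each reads 5′ to 3′ on the strand of its gene. Capitals mark an ISRE core, which is TTTC, any 2 bases and TTTC on either strand, or a GAS, which is TTC, any 3 bases and GAA.
Ifit1, chr19:34640739-34640888, plus strand: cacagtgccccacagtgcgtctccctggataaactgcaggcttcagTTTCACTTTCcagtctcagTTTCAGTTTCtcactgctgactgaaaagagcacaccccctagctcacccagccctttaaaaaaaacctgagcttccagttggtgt
Rsad2, chr12:26456453-26456602, minus strand: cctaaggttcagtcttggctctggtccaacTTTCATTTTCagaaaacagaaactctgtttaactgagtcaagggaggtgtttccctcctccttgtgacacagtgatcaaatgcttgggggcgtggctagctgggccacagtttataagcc
Isg15, chr4:156200819-156200968, minus strand: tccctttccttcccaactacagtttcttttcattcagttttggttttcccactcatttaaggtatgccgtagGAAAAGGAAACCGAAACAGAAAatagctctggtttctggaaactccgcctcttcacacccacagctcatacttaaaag
Ifitm2, chr7:140955962-140956111, minus strand: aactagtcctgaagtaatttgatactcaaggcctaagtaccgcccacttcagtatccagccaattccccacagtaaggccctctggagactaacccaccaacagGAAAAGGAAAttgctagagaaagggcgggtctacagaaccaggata
Bst2, chr8:71537473-71537622, minus strand: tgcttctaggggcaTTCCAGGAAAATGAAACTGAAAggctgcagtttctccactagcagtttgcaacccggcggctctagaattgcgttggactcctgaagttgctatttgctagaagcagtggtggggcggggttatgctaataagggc
Irf1, chr11:53769864-53770013, plus strand: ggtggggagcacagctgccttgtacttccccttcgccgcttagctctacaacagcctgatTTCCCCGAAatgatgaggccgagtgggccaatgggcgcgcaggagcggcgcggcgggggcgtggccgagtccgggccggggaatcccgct

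In Ifit1 the ISRE cores begin 104 and 85 bases before the start, whereas Rsad2 has 1 core, 120 bases before it. Isg15 carries 3 overlapping cores that begin 78, 72 and 66 bases before the start. Ifitm2 has 1 core at 46 bases. Bst2 has a GAS at 136 bases that overlaps the first of 2 cores, which begin at 130 and 124 bases. Irf1, itself a transcription factor, has a GAS at 90 bases before its start and no ISRE core in this window. RefSeq windows, from 250 bases before to 50 after the start, were found for 34 of the 42 members. An ISRE core lay in the windows of 16 of these 34 members (47.1%), against 3.99% of 27025 genes with a window, and a GAS in 12 (35.3%), against 9.55%. Both elements were found in members that were higher and in members that were lower with OSM. Where higher and lower mean a counting interval wholly on that side of equality, an ISRE core was present in 5 of 10 members with a window that were higher, 6 of 12 that were lower and 3 of 10 that were neither. A GAS was present in 5 of the 10, 3 of the 12 and 3 of the 10. A match is a run of letters and not a measured binding site.

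Most interferon-stimulated genes were expressed at low levels in vehicle-treated ACMs. Levels are compared between genes as FPKM, the authors' fragment counts divided by gene length and library size. With vehicle, 18 of the 42 members reached 1 FPKM, as did 10178 of all 56748 genes, so the members were not low beside all genes. The median of the members was 0.706 FPKM, and 1 member was above 10 FPKM. That gene was B2m, the light chain of MHC class I molecules, at 76.3 FPKM with vehicle, 79.9 with IL-6 and 96.2 with OSM. B2m alone took 27.5%, 28.9% and 31.8% of the members' counts in these libraries. Bst2, the virion-tethering membrane protein tetherin, came next with vehicle at 6.17 FPKM, followed by Ifi35 at 5.24, Irf3 at 4.55 and Ifitm3 at 3.50. With OSM the second place was taken by Ifitm3 at 11.5 FPKM, the other member above 10 FPKM. At the low end, Oas3, an oligoadenylate synthetase, had 0 counts in every library, and Mx1, a dynamin-like antiviral GTPase, had counts of 0, 0 and 2 with vehicle, IL-6 and OSM. In all, 2 members were at 0 with vehicle, 4 with IL-6 and 3 with OSM. Summed over the members, counts were 6042, 6444 and 7757, or 0.0242%, 0.0244% and 0.0252% of each library.

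**Figure D1:**
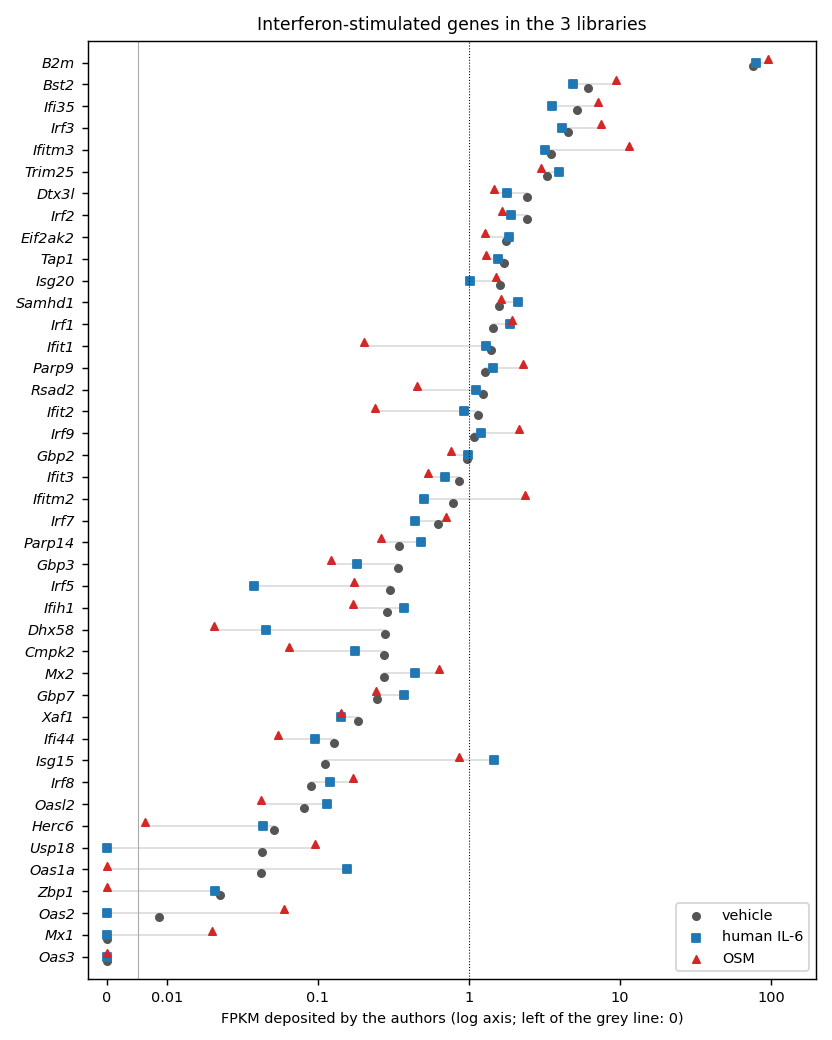
FPKM of each of the 42 interferon-stimulated genes (rows, ordered by the vehicle library) in the vehicle, human IL-6 and OSM libraries, on a log axis with values of 0 set at the left of the grey line. Each point is 1 library, the grey bars join the lowest and highest value, and the dotted line marks 1 FPKM, which 18 members reached with vehicle, 18 with IL-6 and 16 with OSM.

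For ratios, counts were scaled within each pair of libraries, and a member was compared when its counts in the pair summed to at least 10. A ratio is given on the log2 scale, followed by its 95% Clopper-Pearson interval, in which only the counting error enters. A gene is said to have risen or fallen when the whole interval lay beyond 2-fold, and to be higher or lower beyond counting error when the whole interval lay on 1 side of equality. OSM and IL-6 were each compared with the same vehicle library, and OSM enters both the first and the last comparison, so the comparisons are not independent of one another.

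In OSM-treated ACMs the interferon-stimulated genes moved in both directions. Of 37 members compared with vehicle, 1 rose (Ifitm3), where 3.74% of all 15537 genes compared rose, and 3 fell (Ifit1, Ifit2 and Dhx58), where 5.43% of all genes fell. Beyond counting error, 12 members were higher (32.4%, against 33.4% of all genes), 13 were lower (35.1%, against 33.1%), and the intervals of the other 12 held equality. The shares thus lie near those of all genes by either rule, except that the small count of fallen members makes 8.11% of those compared. The median log2 ratio of the members was -0.36, and that of all genes compared was 0.00. Among the 22 members whose counts summed to 100 or more, 8 were higher and 8 lower beyond counting error (36.4% each), and the median was -0.12. The share of all genes at that count level was not worked out. Mx1, Oas1a, Oas2, Oas3 and Zbp1 had too few counts to be compared.

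With human IL-6, most members did not differ from vehicle beyond counting error. Of 37 members compared, 1 rose (Isg15, against 1.77% of all 15472 genes) and 2 fell (Irf5 and Dhx58, against 1.74%), and all of these had few counts. Beyond counting error, 5 members were higher (Isg15, Parp14, Samhd1, Irf1 and Trim25, or 13.5% against 19.6% of all genes) and 6 were lower (Irf5, Dhx58, Isg20, Ifi35, Dtx3l and Irf2, or 16.2% against 19.1%). The intervals of the other 26 members held equality, and the median log2 ratio was -0.13.

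Between the cytokines, 35 members were compared. With OSM, 2 were above their IL-6 level by the 2-fold rule (Ifitm2 and Ifitm3, against 4.24% of all 15544 genes) and 2 below it (Ifit1 and Ifit2, against 5.42%). Beyond counting error, 11 members were higher and 13 lower with OSM than with IL-6, which is 31.4% and 37.1% of those compared and 33.2% of all genes in each direction. The median log2 ratio of OSM to IL-6 was -0.28.

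**Figure D2:**
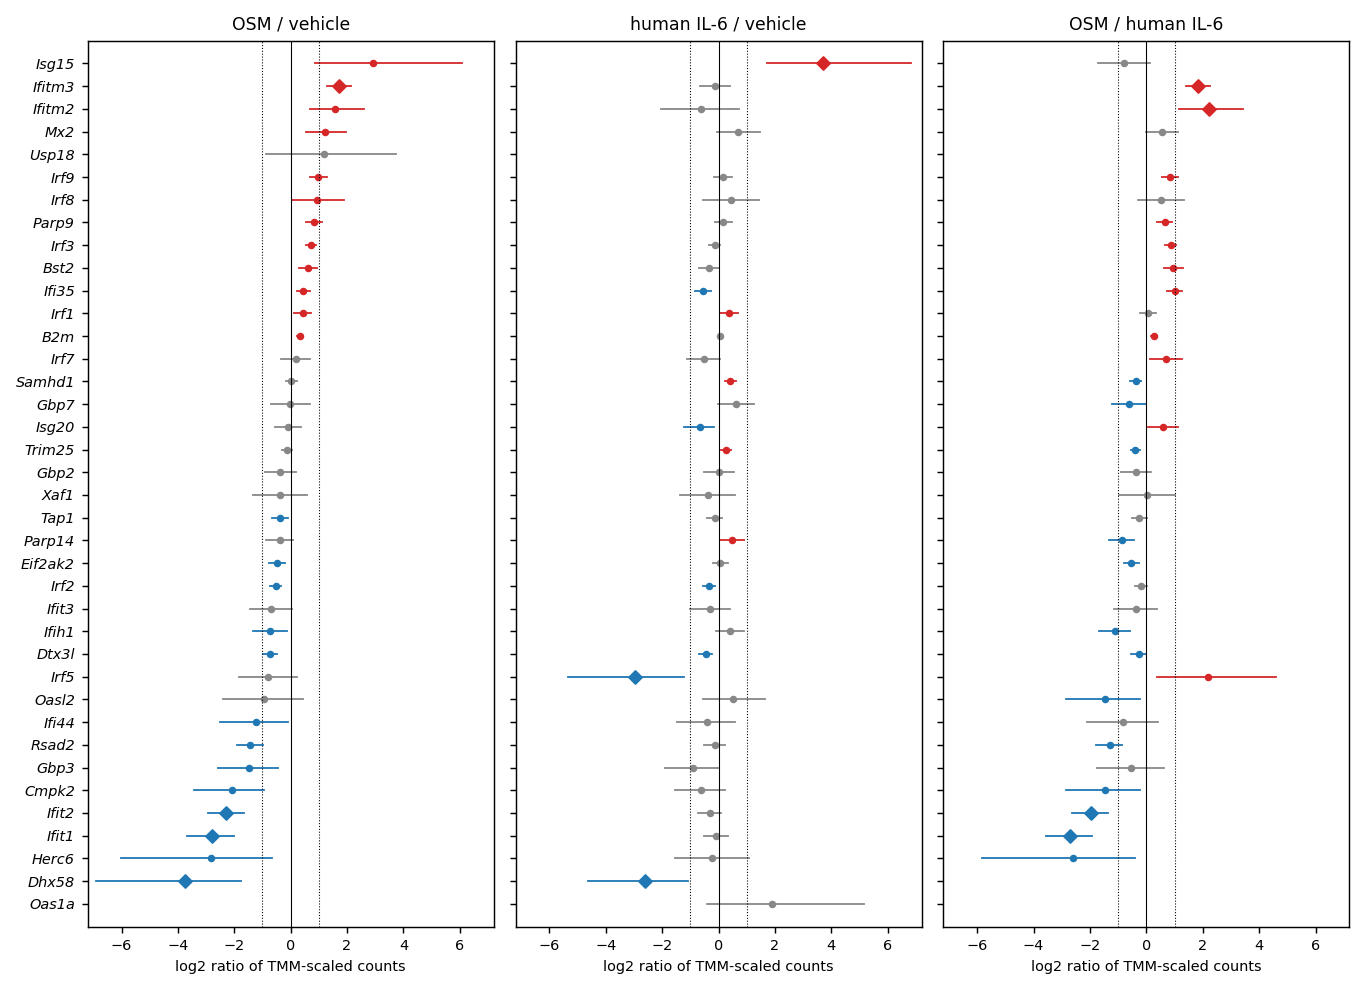
Log2 ratios of TMM-scaled counts for the members compared in at least 1 pair of libraries, for OSM over vehicle, human IL-6 over vehicle and OSM over human IL-6, with 95% counting intervals (bars, cut at the axis limits of the panels). Red and blue mark intervals wholly above and below equality, grey those that hold it, diamonds the members whose interval lies beyond 2-fold (dotted lines), and the first panel shows Ifit1, Ifit2 and Dhx58 at its lower end and Ifitm3 near its top.

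Ifit1 and Ifit2, whose proteins bind foreign RNA or block its translation, fell with OSM. They lie with Ifit3 on the plus strand of chromosome 19 (GRCm39), Ifit2 at chr19:34528094-34553819, Ifit3 at chr19:34560931-34566131 and Ifit1 at chr19:34618271-34627409. Ifit1 had 94 counts with vehicle, 94 with IL-6 and 16 with OSM, so the OSM library stood apart from both others. Its ratio of OSM to vehicle was -2.80 on the log2 scale (interval -3.66 to -2.02), or 6.95-fold lower, and that of IL-6 to vehicle was -0.10 (-0.53 to 0.33). Ifit2 had 115, 99 and 28 counts and was 4.86-fold lower with OSM than with vehicle, with a log2 ratio of -2.28 (-2.93 to -1.67). Both also fell relative to IL-6, by log2 ratios of -2.70 (-3.56 to -1.92) for Ifit1 and -1.96 (-2.62 to -1.35) for Ifit2. The neighbouring gene Ifit3 had 38, 33 and 28 counts, and its interval for OSM against vehicle held equality (log2 ratio -0.68, -1.44 to 0.06). With the trend of ratios with gene length taken off, Ifit3 was lower beyond counting error (-1.08, -1.84 to -0.34). Over 97.2% of its transcript, Ifit3 is repeated at 97% identity or more in Ifit3b, so the split of reads between these copies is uncertain. Ifit3b, which was looked at after its values had been seen, had 37, 40 and 14 counts. The canonical transcripts of Ifit1 and Ifit2 have no such copy.

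Dhx58, Ifih1 and Eif2ak2 encode sensors of double-stranded RNA. All 3 were lower with OSM beyond counting error, as were 33.1% of all genes, and by widely different amounts. The oligoadenylate synthetase genes Oas1a, Oas2 and Oas3 had too few counts for this comparison. Ddx58, the related sensor RIG-I, is not a member, was named after its values had been seen, and had 65, 118 and 82 counts with an interval that held equality (0.09, -0.39 to 0.59). Dhx58 (chr11:100585710-100595097, minus strand), which encodes the RIG-I-like receptor LGP2, had 23 counts with vehicle, 4 with IL-6 and 2 with OSM. It fell with either cytokine, at log2 ratios of -3.77 (-6.89 to -1.75) with OSM and -2.62 (-4.62 to -1.07) with IL-6, and it is the only member that fell in both comparisons, which share the vehicle library. Ifih1, which encodes the receptor MDA5, had 59, 83 and 42 counts. Its level with OSM was lower beyond counting error than with vehicle (-0.73, -1.34 to -0.14) and than with IL-6 (-1.12, -1.70 to -0.57). Against vehicle the difference of Ifih1 was no longer beyond counting error with the trend of ratios with gene length taken off (-0.45, -1.06 to 0.15). Eif2ak2, the RNA-activated kinase PKR that stops translation, was better counted at 228, 255 and 194, and its ratio of OSM to vehicle was -0.47 (-0.76 to -0.19). Zbp1, a sensor of Z-form nucleic acids, had 2, 2 and 0 counts.

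Rsad2 and Cmpk2, which lie head to head on chromosome 12 with 12751 bases between them, were both lower with OSM. Rsad2 encodes viperin, an enzyme that makes a chain-terminating nucleotide, and Cmpk2 a mitochondrial nucleotide kinase. Rsad2 had 136 counts with vehicle, 132 with IL-6 and 59 with OSM. Its log2 ratio of OSM to vehicle was -1.45, with an interval from -1.91 to a point just short of the 2-fold line. Only with the trend of ratios with gene length taken off, or under some other settings, did it pass that line (-1.49, -1.95 to -1.04, less the trend). Cmpk2 had 29, 20 and 8 counts and a log2 ratio of -2.10 (-3.44 to -0.93). With IL-6 both intervals held equality. Neither transcript has a near-identical copy.

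The guanylate-binding proteins are GTPases that act on intracellular pathogens, and their 3 members lie in 1 cluster on chromosome 3. Gbp3 had 28 counts with vehicle, 16 with IL-6 and 12 with OSM, and was lower with OSM beyond counting error (log2 ratio -1.46, -2.57 to -0.44). Gbp2, with 62, 67 and 57 counts, and Gbp7, with 35, 57 and 41, had intervals for OSM against vehicle that held equality. With counts halved for the interval, that of Gbp3 held equality as well. With the trend of ratios with gene length taken off, Gbp2 was also lower beyond counting error (-0.61, -1.15 to -0.06). Whether the members of this cluster share a call thus depends on the setting.

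Ifitm3 and Ifitm2, membrane proteins that hinder the entry of viruses, were both higher with OSM. Ifitm3 (chr7:140589499-140590683, minus strand) had 60 counts with vehicle, 59 with IL-6 and 232 with OSM. Its ratio of IL-6 to vehicle was -0.12 (-0.67 to 0.42), whereas the OSM library was 3.27-fold above vehicle (log2 ratio 1.71, 1.29 to 2.14). Ifitm2 had 13, 9 and 46 counts, and its ratio of OSM to vehicle was 1.58 (0.67 to 2.59). Against IL-6 the log2 ratios were 1.83 (1.42 to 2.27) for Ifitm3 and 2.21 (1.16 to 3.43) for Ifitm2, both beyond 2-fold. With the trend of ratios with gene length taken off, neither passed the 2-fold rule against IL-6. The intervals were then 0.91 to 1.77 for Ifitm3 and 0.66 to 2.93 for Ifitm2. Parts of both transcripts are repeated at 97% identity or more in other annotated genes, 61.2% of Ifitm3 and 49.3% of Ifitm2. Among these genes, Gm45717 overlaps Ifitm2 on the same strand over 1101 bases and had 0 counts in every library. Their counts can therefore depend on how reads with several matches or in overlapping genes were handled.

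Gene length moved with the OSM ratio across the whole library and bears on these short genes. Among protein-coding genes in 20 bins of length, the median log2 ratio of OSM to vehicle went from 0.55 in the shortest bin (median length 1140 bases) to -0.79 in the longest (15846 bases). For IL-6 against vehicle the same medians were 0.03 and -0.02. Ifitm2, Ifitm3, Isg15, B2m and Bst2 are between 655 and 903 bases long, where the running median is 0.53. Less this trend, Ifitm3 had a log2 ratio of 1.18 (0.77 to 1.62) and no longer passed the 2-fold rule. B2m, with 1660, 1861 and 2470 counts, was higher with OSM by 0.33 (0.24 to 0.42) but lower once the trend was taken off, at -0.20 (-0.29 to -0.10). Bst2, with 141, 119 and 255 counts, had a ratio of 0.61 (0.31 to 0.92), and of 0.09 (-0.22 to 0.39) less the trend. In contrast, Ifit1, at -3.03, and Ifit2, at -2.35, lay further from equality without it. Ifit3, Gbp2, Isg20 and Irf5 were lower, and Samhd1 higher, beyond counting error only with the trend taken off. Whether length sets these ratios was not tested.

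**Figure D3:**
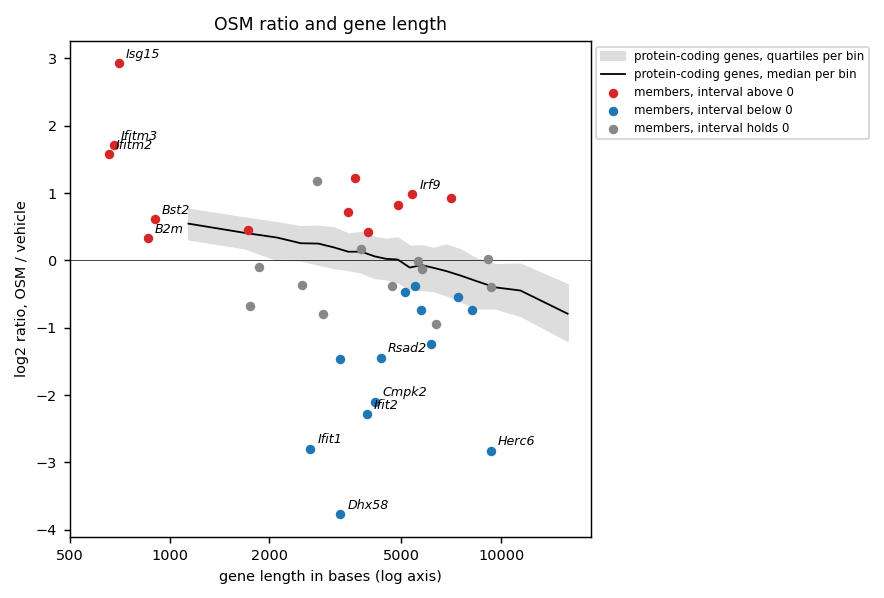
Log2 ratio of OSM to vehicle against gene length (log axis) for the 37 members compared (points, coloured by whether the counting interval lies above 0, below 0 or holds it), over the median (line) and quartiles (grey band) of protein-coding genes in 20 bins of length. The line goes from 0.55 in the shortest bin to -0.79 in the longest, and Ifit1, Ifit2, Dhx58, Cmpk2 and Rsad2 lie below the band while Isg15, Ifitm2 and Ifitm3 lie above the level of its left end.

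Isg15 (chr4:156283912-156285253, minus strand) encodes a ubiquitin-like protein that is joined to other proteins, and it had 2 counts with vehicle, 28 with IL-6 and 18 with OSM. The vehicle library thus had the low value, and both cytokine libraries were above it. The log2 ratio to vehicle was 3.71 (1.72 to 6.82) with IL-6, which passed the 2-fold rule, and 2.93 (0.87 to 6.08) with OSM, which did not. Since both rest on the same 2 vehicle counts, they are not separate evidence, and OSM against IL-6 gave -0.78 (-1.72 to 0.13). Another annotated gene repeats 32.2% of its transcript at 97% identity or more. Herc6, the ligase that attaches ISG15 in mice, had 12, 11 and 2 counts and was lower with OSM beyond counting error (-2.83, -6.03 to -0.66). Usp18, the protease that removes ISG15 and restrains the type I interferon receptor, had 3, 0 and 8 counts, and its interval for OSM against vehicle held equality. Trim25, a ubiquitin ligase that activates RIG-I, was far better counted at 478, 613 and 515 and was slightly higher with IL-6 (0.26, 0.08 to 0.43).

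Among the interferon regulatory factors (IRFs), the partner of STAT2 was higher with OSM and the antagonist of IRF1 was lower. Irf9, the DNA-binding subunit of ISGF3, had 147 counts with vehicle, 175 with IL-6 and 344 with OSM, a log2 ratio of OSM to vehicle of 0.99 (0.70 to 1.27). Irf1, an activator of antigen presentation genes, had 146, 203 and 231 counts and was higher beyond counting error with OSM (0.42, 0.12 to 0.73) and with IL-6 (0.38, 0.06 to 0.69). Irf2, which competes with IRF1 for its sites, had 452, 383 and 368 counts and was lower with both, at -0.54 (-0.74 to -0.34) and -0.34 (-0.54 to -0.14). With counts halved for the interval, those of Irf1 held equality with OSM and with IL-6, whereas Irf2 was still lower with both. Irf3, which is activated by phosphorylation after viral sensing, had 396, 385 and 768 counts and a ratio of 0.71 (0.54 to 0.89) with OSM. It overlaps Bcl2l12 on the other strand over 1065 bases, and that gene had 49, 48 and 83 counts. Irf8, a factor of myeloid cells, had 16, 23 and 36 counts and a ratio of 0.93 (0.04 to 1.88) with OSM. Irf7, the amplifier of type I interferon production, had 60, 45 and 80 counts, and its interval for OSM against vehicle held equality (0.17, -0.33 to 0.68).

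Irf5, a factor used downstream of Toll-like receptors, was the IRF that fell with IL-6. It lies at chr6:29526624-29541870 on the plus strand and had 22 counts with vehicle, 3 with IL-6 and 15 with OSM, so the IL-6 library alone was low. The log2 ratio of IL-6 to vehicle was -2.97 (-5.36 to -1.24), and that of OSM to vehicle was -0.79 (-1.85 to 0.22). It overlaps Tnpo3 on the other strand, which had 2586, 2657 and 2274 counts, and the sources used here do not give whether counting used the strand. Reads of the overlap can therefore belong to either gene.

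Parp9 and Dtx3l, neighbours on chromosome 16, differed in direction with OSM. Parp9 and Dtx3l encode an ADP-ribosyltransferase and a ubiquitin ligase that act as 1 complex, and the genes overlap by 682 bases on opposite strands. Parp9 had 158 counts with vehicle, 191 with IL-6 and 330 with OSM, whereas Dtx3l had 354, 276 and 251. Parp9 was higher with OSM than with vehicle (0.82, 0.54 to 1.10) and Dtx3l was lower (-0.74, -0.98 to -0.50), and these intervals do not overlap. Dtx3l was lower with IL-6 too (-0.46, -0.69 to -0.23), while the interval of Parp9 held equality there. Parp14, a mono-ADP-ribosyltransferase, had 81, 121 and 73 counts, with an interval that held equality for OSM against vehicle (-0.39, -0.87 to 0.08) and ratios of 0.48 (0.06 to 0.90) for IL-6 against vehicle and -0.87 (-1.31 to -0.44) for OSM against IL-6. Without a known strand setting, reads from the 682 shared bases cannot be told apart.

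Of the remaining effectors, Mx2, an antiviral GTPase, had 25 counts with vehicle, 43 with IL-6 and 69 with OSM, and a log2 ratio of OSM to vehicle of 1.22 (0.54 to 1.95). Ifi35, a partner of NMI, had 229, 167 and 370 counts and differed between the cytokines, lower than vehicle with IL-6 (-0.56, -0.85 to -0.26) and higher with OSM (0.45, 0.21 to 0.69). The direct ratio of OSM to IL-6 was 1.01 (0.74 to 1.28) for Ifi35. With the length trend taken off, its ratio of OSM to vehicle was 0.04 (-0.20 to 0.29). Isg20, an exonuclease, had 76, 51 and 84 counts and was lower with IL-6 (-0.68, -1.22 to -0.14). Samhd1, which degrades deoxynucleotides, had 368, 523 and 443 counts and was higher with IL-6 (0.41, 0.21 to 0.60). Tap1, the peptide transporter of antigen presentation, had 236, 231 and 214 counts, with a small difference with OSM (-0.38, -0.66 to -0.11). Ifi44 had 20, 16 and 10 counts and a ratio of -1.24 (-2.50 to -0.08) with OSM, and Xaf1, a partner of the apoptosis inhibitor XIAP, had 22, 18 and 20 with no difference beyond counting error in any pair. The oligoadenylate synthetase family, whose products activate RNase L, was hardly counted. Oas1a had 2, 8 and 0 counts and Oas2 had 1, 0 and 8, and 99.0% of the Oas1a transcript is repeated in Oas1g. Oasl2, a relative of these enzymes, had 13, 20 and 8 counts and was lower with OSM than with IL-6 (-1.46, -2.86 to -0.22).

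The upstream steps of the pathway were examined in lists of other genes. None of 19 interferon ligand genes had enough counts to be compared, and 1 count in the vehicle library was all that the list held. All 6 interferon receptor genes were counted, none rose or fell in any pair, and Ifnar2, a chain of the type I receptor, had the largest difference with OSM, at 348, 432 and 630 counts (0.61, 0.42 to 0.81). Of the kinases and STAT factors, none of 6 rose or fell by the 2-fold rule. Beyond counting error with OSM, 3 were higher (50%, against 33.4% of all genes) and 2 lower (33.3%, against 33.1%). Tyk2 and Jak1, named after their values had been seen, were the lower genes, with 837, 913 and 521 counts for Tyk2 (-0.93, -1.09 to -0.77) and 4978, 5009 and 4492 for Jak1 (-0.39, -0.45 to -0.33). Stat2 had 181 counts with vehicle, 218 with IL-6 and 266 with OSM (0.31, 0.04 to 0.59), and Stat3 had 7953, 8947 and 14412 (0.62, 0.58 to 0.66). With halved counts the interval of Stat2 held equality (-0.08 to 0.72). Of 9 inhibitors compared, 1 rose with OSM (11.1%, against 3.74% of all genes). It was Socs3, the feedback inhibitor that binds gp130 and JAK1, at 670, 646 and 18194 counts (4.52, 4.41 to 4.63). With OSM, 6 of the 9 were higher beyond counting error (66.7%, against 33.4% of all genes) and 1 lower (11.1%, against 33.1%). Socs1, the inhibitor of interferon receptor kinases, had 4, 3 and 25 counts and a ratio of 2.40 (0.87 to 4.39), and it passed the 2-fold rule only against IL-6 (2.92, 1.20 to 5.29).

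Of 13 nucleic acid sensors and their signaling partners compared, 2 rose with OSM (15.4%, against 3.74% of all genes) and none fell (against 5.43%). Myd88, the adaptor of Toll-like and IL-1 receptors, had 673, 725 and 3177 counts (2.00, 1.88 to 2.12), and Sting1, the adaptor of cytosolic DNA sensing, had 17, 10 and 83 (2.05, 1.28 to 2.89). Beyond counting error with OSM, 3 of this list were higher (23.1%, against 33.4% of all genes) and 8 lower (61.5%, against 33.1%). With IL-6, Cgas, the DNA sensor upstream of STING, went from 16 counts with vehicle to 0, and it had 7 with OSM. Of 44 other interferon-stimulated genes compared, none rose with OSM (against 3.74% of all genes) and 3 fell (6.82%, against 5.43%). These were the helicase gene Ddx60, at 54, 65 and 1 counts, and the guanylate-binding genes Gbp9, at 75, 47 and 11, and Gbp6, at 213, 138 and 52. Ddx60 was 63.8-fold lower with OSM than with vehicle, with a wide log2 interval of -11.33 to -3.46 from its single count. The log2 ratios of OSM to vehicle were -3.01 (-4.07 to -2.09) for Gbp9 and -2.28 (-2.74 to -1.83) for Gbp6. In this list 11 genes were higher (25%, against 33.4% of all genes) and 9 lower (20.5%, against 33.1%) beyond counting error with OSM. With IL-6, 9 were higher (20.5%, against 19.6%) and 14 lower (31.8%, against 19.1%). With IL-6, 3 genes of the list fell (6.82%, against 1.74% of all genes). These were Gbp4, at 13, 1 and 11 counts (log2 interval -9.21 to -1.07), Slfn2, at 14, 0 and 15, and Cxcl9, at 12, 0 and 11. Cxcl10, a chemokine induced by interferon, had 35, 86 and 28 counts and was lower with OSM than with IL-6 (-1.76, -2.43 to -1.13).

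**Figure D4:**
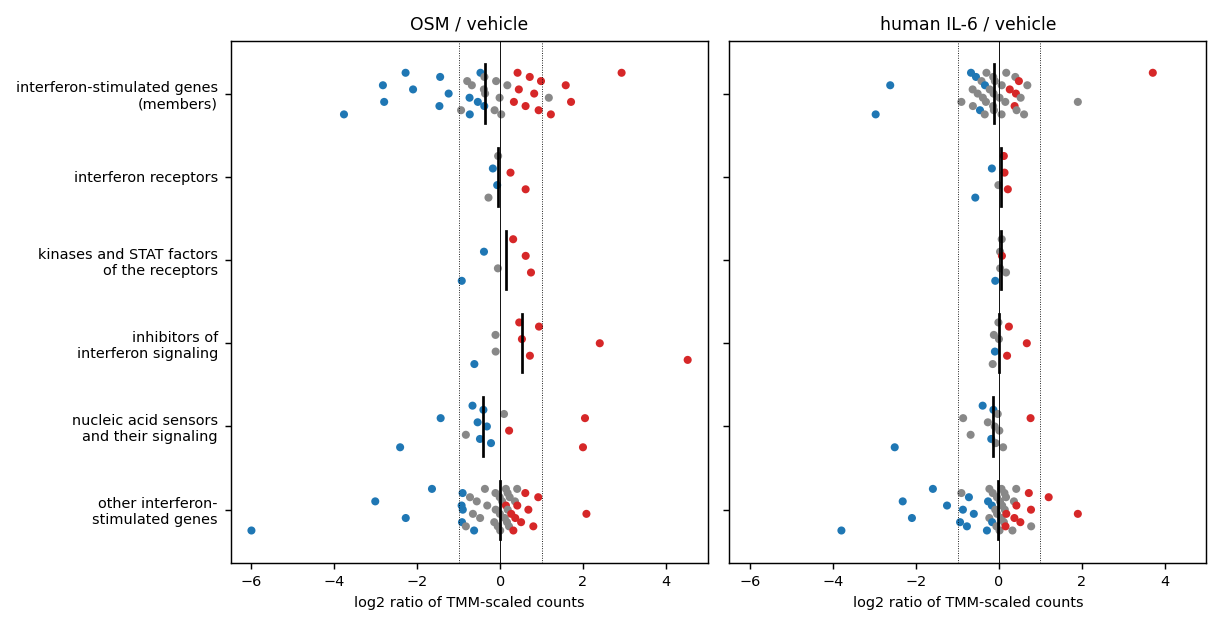
Log2 ratios of TMM-scaled counts for the interferon-stimulated genes and 5 lists of related pathway genes, for OSM over vehicle (left) and human IL-6 over vehicle (right). Each point is 1 gene compared (red, interval above equality, blue, below, grey, holding it), black bars are medians, dotted lines mark 2-fold, and the point furthest right with OSM is Socs3 at 4.52.

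Several of these calls rest on few counts. Among genes with 1 to 20 counts, even counts made 62.1% with vehicle, 61.4% with IL-6 and 63.5% with OSM, and more genes had 2 counts than 1 (1187 against 775 with vehicle). Counts of this kind would arise if both ends of a read pair were counted, which was not tested, and the intervals are then too narrow. With counts halved for the interval, a setting chosen after seeing the data, Ifitm3 (1.12 to 2.34), Ifit1 (-4.09 to -1.70) and Ifit2 (-3.24 to -1.42) kept their calls against vehicle. Dhx58 lost its call with OSM, and Isg15, Irf5 and Dhx58 lost theirs with IL-6, so that no member was called for IL-6. Ifitm2 lost its call between OSM and IL-6. Beyond counting error, halving took away the difference from vehicle of Irf1, Irf8, Ifi44, Ifih1, Gbp3, Herc6 and Tap1 with OSM and of Irf1, Isg20 and Parp14 with IL-6. Between OSM and IL-6 it took away those of Isg20, Irf5, Irf7, Oasl2, Gbp7, Dtx3l, Cmpk2 and Herc6. Of the other pathway genes named, Cgas, Gbp4, Slfn2 and Cxcl9 lost their calls with IL-6, Sting1 with OSM, and Socs1 and Cxcl10 between the cytokines. When a coefficient of variation of 0.2 between samples was assumed on top of the counting error, Ifitm3 lost its call with OSM as well, and its interval stayed above equality.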

How the data were processed

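Per the labels, mRNA was purified on poly-T beads, and the submitters' processing notes name fastp, HISAT2 2.2.1, featureCounts 2.0.6, edgeR 4.0.16 and build mm39. The paper's methods name other versions of featureCounts and edgeR. The authors deposited raw counts for each gene and the FPKM values that they made from these counts. Whether counting used the strand is not given in the sources used here.

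Genes with at least 10 counts over a pair of libraries were compared, as log2 ratios of counts scaled by TMM factors (edgeR 4.0.16, R 4.3.3), with 95% Clopper-Pearson intervals (scipy 1.17.1). The reads carry no molecular identifiers and are not independent molecules, so intervals and the floor cover counting error only. With 1 library per condition no test across replicates exists and no p-value is given. Ratios compare libraries, not conditions. Where a library had 0 counts, a floor of 3 counts per library stood in. The procedure was checked on simulated counts that held counting error only. That check cannot show whether the intervals fit the spread of these data.

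The length trend is a running median over 500 protein-coding genes. Near-identical copies were sought with BLAST+ among GENCODE M39 transcripts (at least 100 bases at 97% identity), and motifs in RefSeq promoter windows on both strands.

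The members and lists were chosen with earlier results of these data known. All members may be named, and of the other lists the receptors, Stat2, Stat3, Socs1, Socs3, up to 5 called genes per list, and genes that overlap or neighbour a member. Some items that this rule names are not reported here. Alternatives were DESeq2 1.42.0 size factors, library totals, minimums of 20 and of 4 counts, the point estimate, a 1.5-fold rule, an assumed coefficient of variation of 0.2, removal of the length trend, FPKM ratios and halved counts. All per-sample columns matched a sample (0 unmatched).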

Additional observations from a re-analysis of the deposited data

How the results depend on the processing

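No paired analysis was possible because each condition is 1 library and the labels give no replicate numbers. For the same reason no replicate could be left out. Of the 10 alternatives, only DESeq2 size factors, library totals, FPKM ratios and removal of the length trend can change a log2 ratio. Under these, no ratio called by the 2-fold rule changed direction. The others change only the filter, the rule or the interval, so a change of direction was not possible there. Counts by the 2-fold rule are 1 member higher and 3 lower for OSM against vehicle, 1 and 2 for IL-6 against vehicle, and 2 each way for OSM against IL-6. By the point estimate alone, 5 members were higher and 8 lower for OSM against vehicle, 2 were higher for IL-6 against vehicle, and 4 were higher and 7 lower for OSM against IL-6. With a 1.5-fold rule, 4 were higher and 6 lower for OSM against vehicle and 5 higher for OSM against IL-6. With an assumed coefficient of variation of 0.2, 0 were higher for OSM against vehicle, 1 was lower for IL-6 against vehicle, and 0 were higher and 1 lower for OSM against IL-6. With the length trend removed, OSM had 0 higher members against vehicle and 0 against IL-6. With halved counts, chosen after seeing the data, 0 were higher and 0 lower for IL-6 against vehicle and 1 was higher for OSM against IL-6. The shares of all genes under these settings are not given here.

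Beyond counting error, the coefficient of 0.2 left 5 of 12 higher and 7 of 13 lower members for OSM against vehicle, 1 of 5 and 2 of 6 for IL-6 against vehicle, and 6 of 11 and 7 of 13 for OSM against IL-6. Halved counts left 8 lower for OSM against vehicle, 3 higher for IL-6 against vehicle and 8 lower for OSM against IL-6. The halved counts widen every interval by construction. With the assumed variation a normal approximation replaced the Clopper-Pearson interval, and it was wider except for some members with very few counts, such as Dhx58. The cause of the length trend was not tested. The other counts of members stayed within 1.5 times their value. Among the ratios of single members by setting, 1033 kept their side of the threshold or their value, 29 gained a call, 13 lost one and 10 moved. The tally is partly fixed by the settings. The count minimums cannot change a single ratio, and the looser point-estimate and 1.5-fold rules gave 17 and 10 of the gains. Depth limits the members with few counts, which include Dhx58, Herc6, Isg15, Irf5 and Usp18.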
